A study of Mus musculus with 26 samples.

Results

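The 2 RNA-seq libraries titled Control rep1 and Control rep2 were taken alone, out of the 26 samples of the series, to describe what 4T1 cells expressed at baseline. 4T1 is a mouse mammary carcinoma line of BALB/c origin that grows in culture and spreads from the mammary fat pad to the lung, and it is widely used as a model of triple-negative breast cancer. The labels give both libraries as 4T1 cells of the wild type genotype, strain BALB/c, tissue mammary tumor, with no drug or antisense agent, grown in DMEM with 10% serum. The study's methods describe the controls as cells that received a guide RNA against Renilla luciferase, a gene that the mouse genome does not hold, and were then grown from single sorted cells. Control clones were also kept for a MaTAR25 RNA level near that of the parental line. The labels do not say whether the pair came from the same clone or from separate cultures, so the spread between them may be technical, and a clone need not stand for the whole line. A culture also lacks the fibroblasts, vessels and leukocytes of a tumor.

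Carcinomas arise from epithelium, the sheet-forming tissue whose cells are joined by E-cadherin and claudins and braced by keratin filaments. The mammary duct has an inner luminal layer, which can make milk, and an outer basal or myoepithelial layer, which contracts and rests on a basement membrane. In the epithelial-mesenchymal transition (EMT), carcinoma cells lose epithelial junctions and gain vimentin, fibronectin and the transcription factors of the Snail, Twist and Zeb families, wholly or in part. The values show where the 4T1 control cells stood on these axes, which growth and immune signals they transcribed and which genes gave no reads.

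In total 43155437 reads were counted to genes in replicate 1 and 31178780 in replicate 2. Levels are given as counts in every 1000000 gene counts (CPM), replicate 1 first and replicate 2 second, or as TPM, the same share for transcripts, which also divides by exon length and is used to compare levels between genes. Ranks by reads counted, the threshold and the promoter classes use CPM. Means are followed by the SD over the 2 libraries, and no test was made because no groups were compared. A gene was called expressed at 1 CPM or more in both libraries. By this rule 11800 of 45318 genes were expressed (26.0%), and 10956 of 21578 protein-coding genes (50.8%). No read was counted in either library for 23569 genes (52.0%), including 6778 protein-coding genes (31.4%). A count of 0 in both libraries allows a level of up to 0.0404 CPM (3 counts over both), for counting error only. The reads were spread over many genes. The 10 highest genes of each library held 3.73% of the counts in replicate 1 and 3.77% in replicate 2, and 1225 genes held 50% of them. The median expressed gene stood at 39.8 CPM and 32.7 TPM, against 1.60 CPM and 1.85 TPM for the median protein-coding gene.

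The most counted genes served protein synthesis, protein folding, respiration and the contact of cells with matrix. Eef2, the elongation factor that moves the ribosome along the mRNA, had 7285 and 7549 CPM, and Eef1a1, which delivers aminoacyl-tRNA, had 7006 and 7708 CPM. Both libraries put these genes first and second, in the opposite order. Hsp90ab1, a cytosolic chaperone, had 3232 and 3091 CPM, and Hspa5, the main chaperone of the endoplasmic reticulum, had 2999 and 3156 CPM. Fn1, which encodes the matrix protein fibronectin, was the seventh most counted gene with 2609.6 and 2657 CPM. Itga3, the integrin subunit that pairs with beta 1 to bind laminin, was also among the 20 most counted, with 1752 and 1598 CPM, as were the glycolytic enzyme Pkm with 1563 and 1774 CPM and the linker histone H1f0 with 2029 and 2328 CPM.

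Length changed this order. By TPM the highest gene was Rplp1, a stalk protein of the large ribosomal subunit, at 12965 ± 865 TPM, followed by Eef1a1 at 11033 ± 689.5 TPM and Lgals1, a secreted galactose-binding lectin, at 10171 ± 896 TPM. Of the 20 highest genes by TPM, 6 were cytosolic ribosomal proteins and 4 were encoded by mitochondrial DNA. 3 others are known from epithelial and carcinoma cells: the calcium-binding protein S100a6 at 3843 ± 714 TPM, the keratin Krt18 at 3102 ± 41 TPM and the tight junction protein Cldn4 at 3059.8 ± 33.4 TPM. The noncoding 2410006H16Rik was also among them, at 3350.0 ± 492 TPM. Of Rplp1 itself, 42.5% of 50-base windows occurred once in the genome and in no other gene's exon, and of Rpl36, eighth by TPM, 2.5%, so part of the reads of these genes may have been left uncounted.

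**Figure D1:**
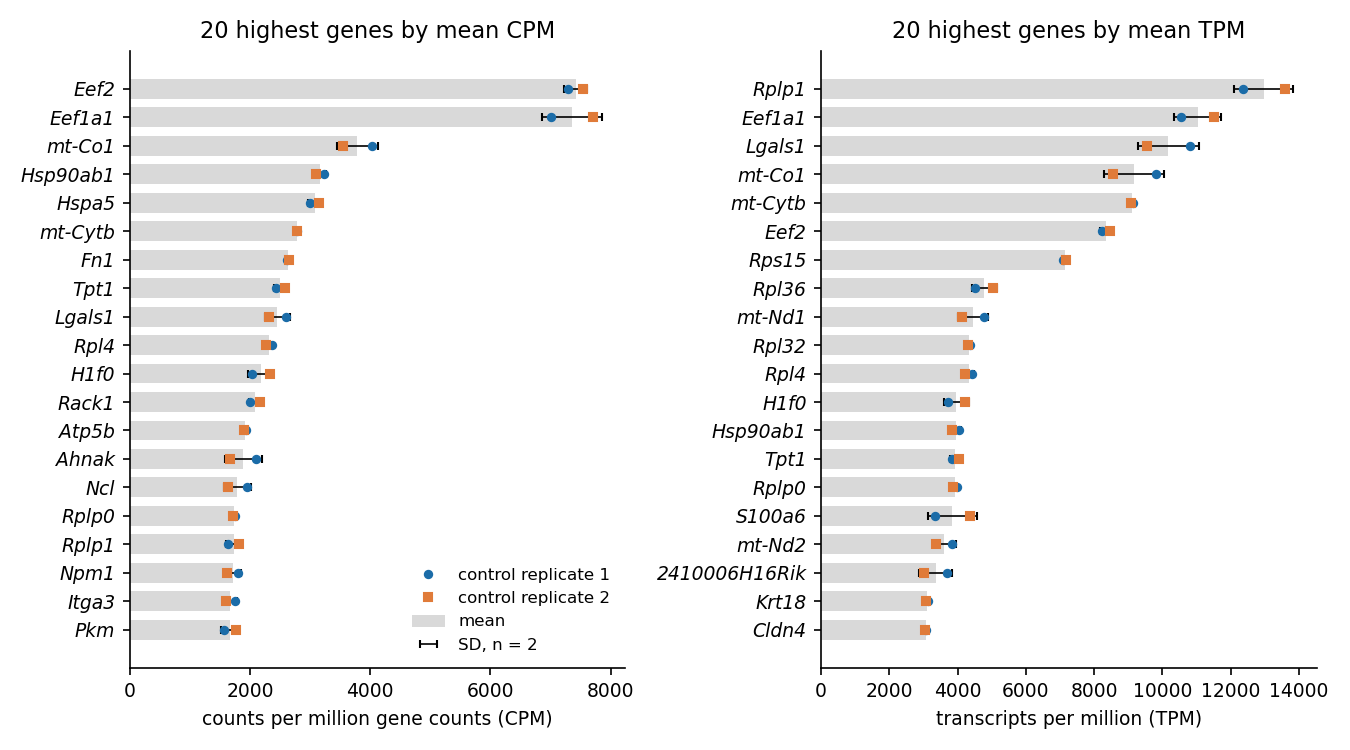
The 20 highest genes of the 4T1 control libraries by mean CPM (left) and by mean TPM (right). Grey bars are means, whiskers SD over the 2 libraries, circles replicate 1 and squares replicate 2; Eef2 and Eef1a1 lead by CPM, and Rplp1 leads by TPM.

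Luminal epithelial markers were broadly expressed. Of the 23 genes on the luminal list, 17 were expressed (73.9%, beside 50.8% of protein-coding genes), with a list median of 87.3 TPM. The paired keratins of simple epithelium, Krt8 and Krt18, lie next to each other on chromosome 15 at chr15:101996698-102004482 and chr15:102028180-102032027 (GRCm38). Krt18 had 1199 and 1185 CPM and Krt8 had 477 and 433 CPM. The ratio of replicate 2 to replicate 1 was 0.988 (95% counting interval 0.975 to 1.0) for Krt18 and 0.908 (95% counting interval 0.889 to 0.928) for Krt8. Per length, Krt18 stood above Krt8, at 3102 ± 41 TPM against 869 ± 63.4 TPM, but only 50% of Krt8 windows could be counted against 97.5% for Krt18, so part of the Krt8 reads may be missing. The simple keratins Krt7 and Krt19 had 809 and 853 CPM and 153 and 133 CPM.

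The junction genes of epithelium were also high. Epcam, an adhesion molecule of carcinoma cells, had 486 and 510.0 CPM. Cdh1, which encodes E-cadherin, had 802 and 988 CPM, somewhat more in replicate 2. Cldn4 had 1492 and 1479.7 CPM, Cldn3 378 and 364 CPM and Cldn7 132 and 128 CPM. These claudins were in the same range in both libraries. Esrp1, which holds mRNA splicing in the epithelial form, had 548 and 534 CPM, and the epithelial transcription factors Grhl2 and Gata3 had 96 and 101 CPM and 95.4 and 90.3 CPM. Foxa1, a pioneer factor of hormone-responsive luminal cells, was low at 6.02 and 6.57 CPM. Some luminal markers gave few reads or none: Kit had no read, and Elf5, Ehf, Prom1 and Aldh1a3 had at most 2 reads in either library. Muc1, a mucin of the luminal surface, was under the threshold at 0.556 and 0.577 CPM.

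Basal markers split in 2. Of 20 genes 6 were expressed (30.0%, beside 50.8% of protein-coding genes), and the list median was 0.149 TPM. Several of the expressed ones are receptors of the cell surface. Itgb4 and Itga6, the subunits of the laminin receptor of hemidesmosomes, had 239 and 231 CPM and 201 and 157 CPM, and Procr, a receptor found on basal stem cells, had 78.4 and 72.6 CPM. Most genes of the basal keratin and contractile programs were not among them. Krt5, Krt6b and Sox10 had no read in either library, Krt6a also had none but only 37.5% of its windows could be counted, and the basal factor Trp63 had 6 and 3 reads. The smooth muscle genes Acta2, Cnn1, Mylk and Myh11 were each under 1 CPM. Tagln, another smooth muscle gene, was expressed, at rank 11296 of all genes by mean CPM. Cdh3, which encodes P-cadherin, was also expressed, at rank 9294. Krt14 was the only type I keratin of the basal layer above the threshold, at 6.86 and 9.14 CPM.

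Several mesenchymal genes were expressed in the same libraries. Of 16 mesenchymal markers and EMT factors 10 were expressed (62.5%, beside 50.8% of protein-coding genes). Beside Fn1, the intermediate filament gene Vim had 402 and 271 CPM, the receptor tyrosine kinase Axl 523 and 403 CPM and Sparc, a secreted calcium-binding matrix protein, 119 and 81.9 CPM. All 3 were lower in replicate 2, and the ratio of replicate 2 to replicate 1 was 0.674 (95% counting interval 0.656 to 0.692) for Vim. Per length, Vim stood at 265 ± 74.4 TPM, under Krt18 and Krt8. The exon lengths used were 4743 bases for Vim, 1437 for Krt18 and 1958 for Krt8. They join all annotated exons of a gene, so TPM is understated where the mRNA made is shorter. Among the factors that repress epithelial genes, Twist1 had 35.5 and 32.6 CPM, Zeb2 19.6 and 19.2 CPM and Snai1 15.5 and 15.8 CPM, with like values in the 2 libraries. Their relatives were low: Zeb1 had 0.371 and 0.321 CPM, Twist2 had 3 and 1 reads and Snai2 had 0 and 1. Cdh2, which encodes N-cadherin, had no read.

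**Figure D2:**
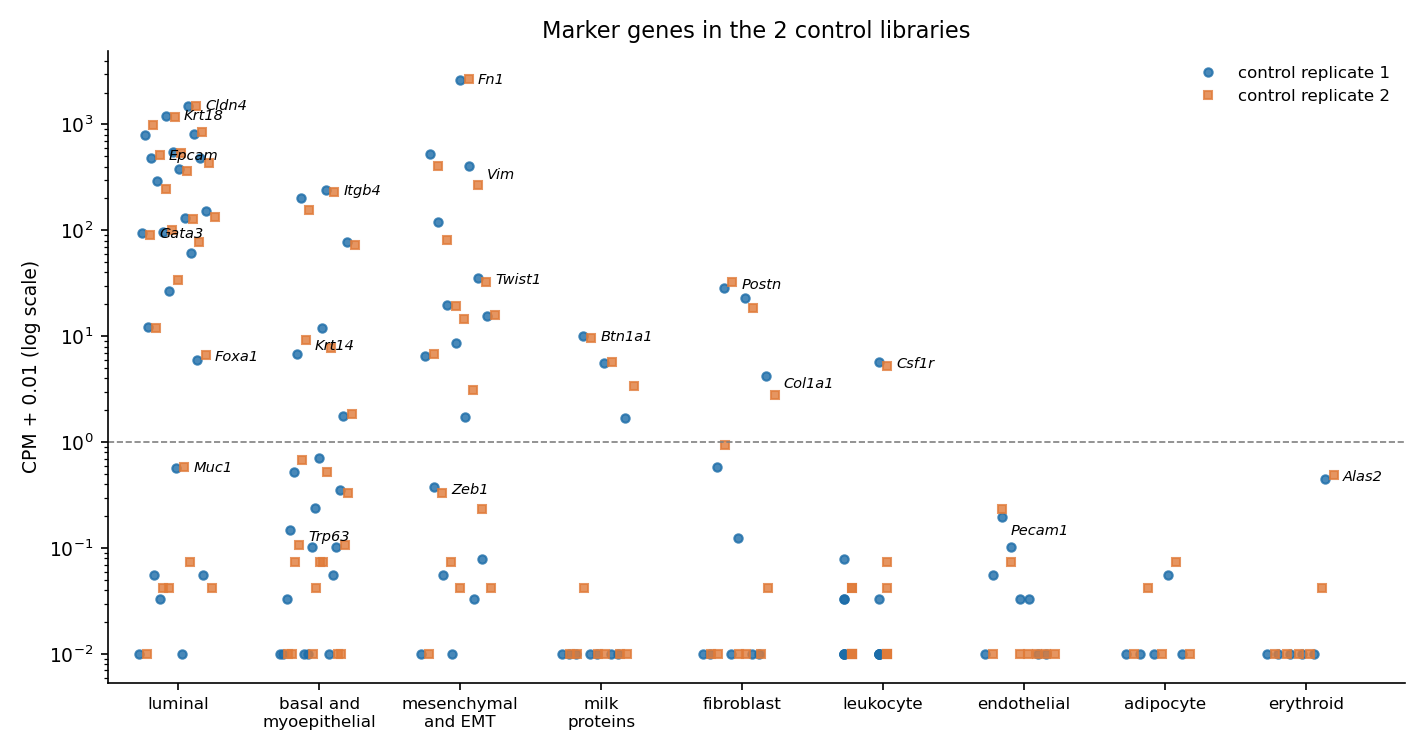
Levels of marker genes by list in replicate 1 (circles) and replicate 2 (squares) on a log scale of CPM + 0.01, with the threshold of 1 CPM dashed. Most luminal genes lie above 10 CPM, basal genes split, mesenchymal genes reach from Fn1 to 0, and nearly all markers of other cell types lie under the threshold.

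4T1 is called triple-negative for the estrogen receptor, the progesterone receptor and excess HER2. Esr1, the estrogen receptor alpha gene, was detected at 24.1 and 26.4 CPM, which per length was 6.91 ± 0.415 TPM. Pgr and Prlr, which encode the progesterone and prolactin receptors, had at most 1 read in either library. Greb1 and Tff1, targets of estrogen receptor in breast cells, had 2 and 3 reads and no read. Erbb2, the gene of HER2, had 87 and 89.6 CPM. Esr2 was at 1.3 and 0.353 CPM, on both sides of the threshold. Milk protein genes were mostly silent: 6 of 10 had no read (60.0%, beside 31.4% of protein-coding genes). These included the caseins Csn1s1, Csn1s2a, Csn1s2b and Csn2, and Lalba, while Wap had 1 read. The exceptions were Csn3 at 5.54 and 5.74 CPM, the milk fat globule gene Btn1a1 at 10.1 and 9.53 CPM and Xdh at 1.69 and 3.4 CPM.

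Markers of other cell types were mostly at or near 0. None of 8 endothelial, 5 adipocyte or 6 erythroid markers was expressed, and their summed levels were at most 0.513 CPM in a library. Of the 4 erythroid markers with no read, only 1 had at least 50% of its windows countable. A 0 in the others thus gives little information on their level. Of 14 leukocyte markers only Csf1r, the receptor of macrophage growth factors, was expressed, at 5.75 and 5.2 CPM, while Ptprc, the pan-leukocyte antigen, had 1 and 1 reads and Adgre1, Lyz2, Tyrobp and Cd3e had none. Of 10 fibroblast markers 3 were expressed (30.0%, beside 50.8% of protein-coding genes). Postn had 28.3 and 32.8 CPM, Pdgfra 23 and 18.6 CPM and Col1a1 4.22 and 2.79 CPM, whereas Col3a1, Dcn, Lum and Thy1 had no read. Of 13 neural, muscle and liver markers the 1 expressed was Mbp, at 50.7 and 52.9 CPM, a locus known to make a second family of transcripts outside myelin-forming cells.

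Oncogenes were widely transcribed. 42 of 46 were expressed (91.3%, beside 50.8% of protein-coding genes), and the list median was 73.4 TPM. Myc, the transcription factor of cell growth, had 534 and 480.2 CPM, which per length was 698 ± 55.6 TPM and the highest TPM of Myc, Mycl and Mycn. Mycl had 7.53 and 4.33 CPM and Mycn had no read. The cell cycle genes Ccnd1 and Cdk4, which act together at the G1 checkpoint, had 566 and 373 CPM and 388 and 403 CPM; Cdk4 was alike in the libraries and Ccnd1 was lower in replicate 2, with a ratio of 0.659 (95% counting interval 0.645 to 0.674). The chromatin protein genes Hmga2 and Hmga1 had 332 and 217 CPM and 189.6 and 182 CPM, although only 32.5% of Hmga1 windows could be counted. Nras and Hras, which encode small GTPases of growth signaling, were expressed at 233 and 255 CPM and 34.2 and 35.1 CPM. Met, the receptor of hepatocyte growth factor, had 262 and 226 CPM. Egfr had 4.61 and 3.4 CPM, Ccne1 4.38 and 5.48 CPM and Myb 2.5 and 1.44 CPM, all under the median expressed gene in CPM and in TPM. Ret and Lin28b were under 1 CPM in both libraries, and Kit had no read.

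Of 24 tumor suppressor genes 21 were expressed (87.5%, beside 50.8% of protein-coding genes) and the other 3 had no read in either library: Cdkn2a, Cdkn2b and Wt1. Trp53, the p53 gene, had 89.6 and 95.4 CPM, Rb1 20.0 and 21.4 CPM, Brca1 28.6 and 31.8 CPM and Brca2 55.2 and 48.9 CPM. These values say nothing of the sequence or function of the products. Among p53 target genes 10 of 11 were expressed (90.9%, against the same 50.8%). Gadd45a was at 195 and 250.2 CPM and Mdm2, which marks p53 for destruction, at 126 and 125 CPM, while Cdkn1a, the cell cycle inhibitor p21, was at 24.4 and 29.3 CPM and Eda2r had no read.

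Cdkn2a and Cdkn2b encode the cell cycle inhibitors p16, p19Arf and p15. They lie side by side on chromosome 4, Cdkn2a at chr4:89274471-89294653 and Cdkn2b at chr4:89306299-89311039 (GRCm38), and all of the windows tested in them could be counted. Mtap, the next protein-coding gene on the lower-coordinate side at chr4:89137122-89181081, had 30641 and 19266 reads, which is 710.0 and 618 CPM. Klhl9, at chr4:88718292-88722465 within the interferon gene cluster, had 3050 and 1997 reads. On the other side Dmrta1, at chr4:89679436-89694772, had 0 and 1. No read thus fell in either inhibitor gene, beside many in the neighboring Mtap. Whether the DNA of the inhibitor genes is present was not measured.

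The cells transcribed cytokines that act on myeloid cells. Of 33 chemokines and cytokines 19 were expressed (57.6%, beside 50.8% of protein-coding genes). Csf3, the granulocyte growth factor, had 74.4 and 65.6 CPM. Csf1 and Il34, the ligands of the macrophage growth factor receptor, had 142 and 156 CPM and 27.8 and 34.6 CPM. Lif, a cytokine of the interleukin 6 family, had 242 and 225 CPM and differed little between the libraries. Mif had 223 and 249 CPM, and per length, at 1183 ± 87.1 TPM, it stood first among the genes on this list. Among chemokines, Cxcl16 had 157 and 149 CPM and the neutrophil attractants Cxcl1 and Cxcl5 had 45.9 and 75.2 CPM and 5.07 and 7.31 CPM. Spp1, which encodes the secreted phosphoprotein osteopontin, had 174 and 332 CPM, higher in replicate 2 with a ratio of 1.91 (95% counting interval 1.85 to 1.96). Tslp, an epithelial cytokine, had 31.4 and 23.4 CPM. Csf2 was low at 1.88 and 2.05 CPM. Il6, Il10, Cxcl12 and Ccl7 had no read, and Ccl2, a monocyte attractant, had 1 and 4.

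Interleukin genes were on in part. Of 33 genes named as interleukins 10 were expressed (30.3%, beside 50.8% of protein-coding genes). A further 14 had no read (42.4%, beside 31.4% of protein-coding genes). Il23a, the p19 subunit of interleukin 23, was far above the rest per length, at 374 ± 34.8 TPM and 209 and 240.3 CPM, but Il12b, which encodes the subunit that p19 needs to form interleukin 23, had no read. Il24, Il7, Il15 and Il11 were between 1 and 10 CPM in both libraries.

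Of 45 growth factors and antagonists 27 were expressed (60.0%, beside 50.8% of protein-coding genes). 3 ligands of the EGF receptor were at a high level: Hbegf at 194 and 146 CPM, Tgfa at 134 and 108 CPM and Areg at 96.1 and 91.9 CPM. Pdgfb, which acts on pericytes and fibroblasts, had 202 and 151 CPM, and the vessel growth factor Vegfa had 99.1 and 94.6 CPM. Of the 19 Wnt genes 5 were expressed (26.3%, against the same 50.8%), with Wnt7b at 268 and 225 CPM and Wnt7a at 91.7 and 79.6 CPM. Wnt10a stood apart from these: its 36 and 9.69 CPM gave the ratio between the libraries furthest from 1 among expressed Wnt genes. The transforming growth factors Tgfb1, Tgfb2 and Tgfb3 were all expressed, at 34.2 and 33.3, 29.1 and 21.6 and 61.8 and 59 CPM, and the activin subunit Inhba had 74.8 and 63.4 CPM. Hgf, Fgf10, Ereg, Bmp2, Bmp4 and Dkk1 had no read. Igf2 also had none, but only 30.0% of its windows could be counted.

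Of 35 receptor genes 22 were expressed (62.9%, beside 50.8% of protein-coding genes), and receptors of several of the ligands above were not. In 19 pairs of a ligand and a receptor, chosen with their values known, both partners were expressed in 8, only the ligand in 7, only the receptor in 3 and neither in 1. The pairs are not independent, and the counts describe only this choice. Among those with both expressed, Hbegf, Tgfa and Areg share Egfr, and Csf1 and Il34 share Csf1r. Csf3r and Kdr had no read, and Pdgfrb and Cxcr2 had at most 1 read in either library, beside their ligands Csf3, Vegfa, Pdgfb and Cxcl1. Pdgfb also binds Pdgfra, which was expressed at 23 and 18.6 CPM, and Vegfa also binds the coreceptor Nrp2 at 343 and 345 CPM. Lifr stayed just under the threshold at 0.811 and 0.994 CPM, while its partner Il6st, the shared signal subunit of the family, had 235 and 249 CPM. Per length, Egfr stood at 1.32 ± 0.289 TPM, under its ligands Hbegf at 132 ± 26.6 TPM, Tgfa at 69.8 ± 11 TPM and Areg at 289 ± 10.5 TPM. The reverse also occurred: Met had 262 and 226 CPM with no read for Hgf, Il6ra had 44.5 and 55 CPM with no read for Il6, and Igf1r had 61.8 and 55.1 CPM beside 2 and 2 reads for Igf1. Partners expressed together included Tgfb1 with Tgfbr2 at 149.9 and 128 CPM and Pdgfa, at 60.6 and 58.8 CPM, with Pdgfra. Erbb3, which pairs with HER2, had 106 and 119.5 CPM.

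**Figure D3:**
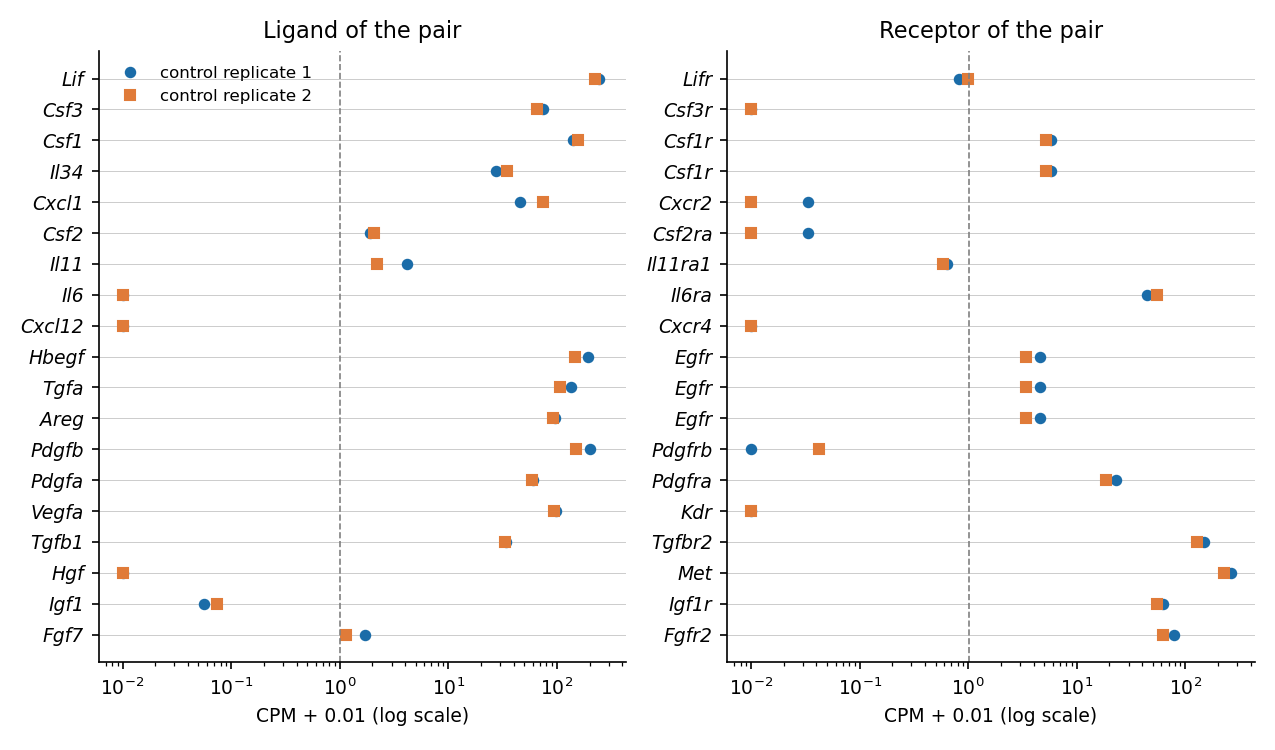
Ligands (left) and their receptors (right) in replicate 1 (circles) and replicate 2 (squares), 1 pair a line, on a log scale of CPM + 0.01 with the threshold of 1 CPM dashed. Csf3, Cxcl1, Pdgfb and Vegfa lie above the threshold with the paired receptor at or near 0, and Hgf and Il6 lie at 0 with the paired receptor above it.

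Basement membrane genes were prominent among matrix genes. 22 of 26 matrix genes were expressed (84.6%, beside 50.8% of protein-coding genes), with a list median of 139.7 TPM. The laminin chains Lama5 and Lamb1 had 1501 and 1455 CPM and 1198 and 1062 CPM, Agrn, a heparan sulfate proteoglycan, 1101 and 1078 CPM, and the type IV collagen chains Col4a1 and Col4a2 676 and 701 CPM and 413 and 449.5 CPM. Both libraries held all of these at a high level. Of the fibrillar collagen genes, Col1a1 was low at 4.22 and 2.79 CPM, Col1a2 had 5 and 0 reads and Col3a1 had none. Col5a1, also of a fibrillar collagen, was higher, at 152 and 78.7 CPM. Col5a1 and Col6a1, the latter at 6.72 and 1.7 CPM, differed between the libraries.

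The integrin genes held the partners of these laminins. Of 27 integrin genes 17 were expressed (63.0%, beside 50.8% of protein-coding genes). Itgb1 had 1255 and 1452 CPM and, with Itga3, stood highest per length, at 1239.6 ± 121 TPM and 1097 ± 76.9 TPM. Itgav had 281 and 292 CPM, and Itga2, which binds collagen, had 164 and 139.8 CPM. The leukocyte integrin gene Itgal had no read, while Itgb2, its beta partner, was present at 15.2 and 27.7 CPM. Itga11 gave 2 and 239 reads, nearly all of them in replicate 2.

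Of 23 genes of matrix proteases, their inhibitors and matrix crosslinkers, 14 were expressed (60.9%, beside 50.8% of protein-coding genes). Plau, the urokinase gene, had 290.3 and 213 CPM, Mmp9, a gelatinase, 221 and 174 CPM and Mmp14, a membrane-bound collagenase, 172 and 169 CPM. Mmp2, the other gelatinase, was under the threshold at 0.348 and 0.289 CPM. The lysosomal cathepsins Ctsl, Ctsb and Ctsd had 323 and 391, 297 and 351 and 214 and 254 CPM, each somewhat higher in replicate 2. Timp2 was the most counted inhibitor at 259 and 272 CPM. Among the crosslinking enzymes Loxl4 had 110.1 and 119 CPM, whereas Lox had 0 and 1 reads and Loxl1 and Loxl2 were under 1 CPM. Mmp3 differed between the libraries, at 13.8 and 5.64 CPM.

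Class I genes that present peptides to T cells were expressed. Of 20 genes on the list of antigen presentation and immune ligands 14 were expressed (70.0%, beside 50.8% of protein-coding genes). The class I genes H2-D1, H2-K1 and B2m had 394 and 448, 238 and 258 and 245 and 281 CPM, and the transporter genes Tap1 and Tap2 19.2 and 28.1 CPM and 54.9 and 79.6 CPM. Of the inhibitory ligands, Cd274, which encodes PD-L1, had 6.47 and 10.6 CPM, Cd47, a signal against uptake by macrophages, had 238 and 239 CPM and Nt5e, which makes adenosine outside the cell, had 141 and 229.8 CPM. Each of these genes had the larger value in replicate 2, Nt5e with a ratio of 1.63 (95% counting interval 1.57 to 1.69), while for Cd47 the ratio was 1.0 (95% counting interval 0.975 to 1.03). The class II gene H2-Aa and its activator Ciita were under 1 CPM, and Cd80, Cd86 and Pdcd1lg2 had no read.

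The Hox genes, which record position along the body axis in 4 clusters, gave a pattern by cluster. Of 39 genes 11 were expressed (28.2%, beside 50.8% of protein-coding genes) and 22 had no read (56.4%, beside 31.4%). In the HoxA cluster on chromosome 6 (chr6:52155590-52260880) 10 of 11 genes were expressed, Hoxa11 being the exception with 1 read. Hoxa5, whose loss is known to disturb mammary development, had 115 and 118 CPM, Hoxa10 47.5 and 42.7 CPM, Hoxa3 27.7 and 29.2 CPM and Hoxa7 26.3 and 26.7 CPM. These values were alike in the 2 libraries. The HoxA genes together summed to 259 CPM in replicate 1 and 259 CPM in replicate 2. In the HoxB cluster on chromosome 11 (chr11:96194316-96368256) no gene of 10 had a read, and 9 of them had at least 50% of their windows countable. The 9 HoxC genes on chromosome 15 summed to 0.348 and 0.289 CPM. Of the 9 HoxD genes on chromosome 2, Hoxd4 alone passed the threshold, at 1.2 and 1.19 CPM, and 42.5% of its windows could be counted.

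**Figure D4:**
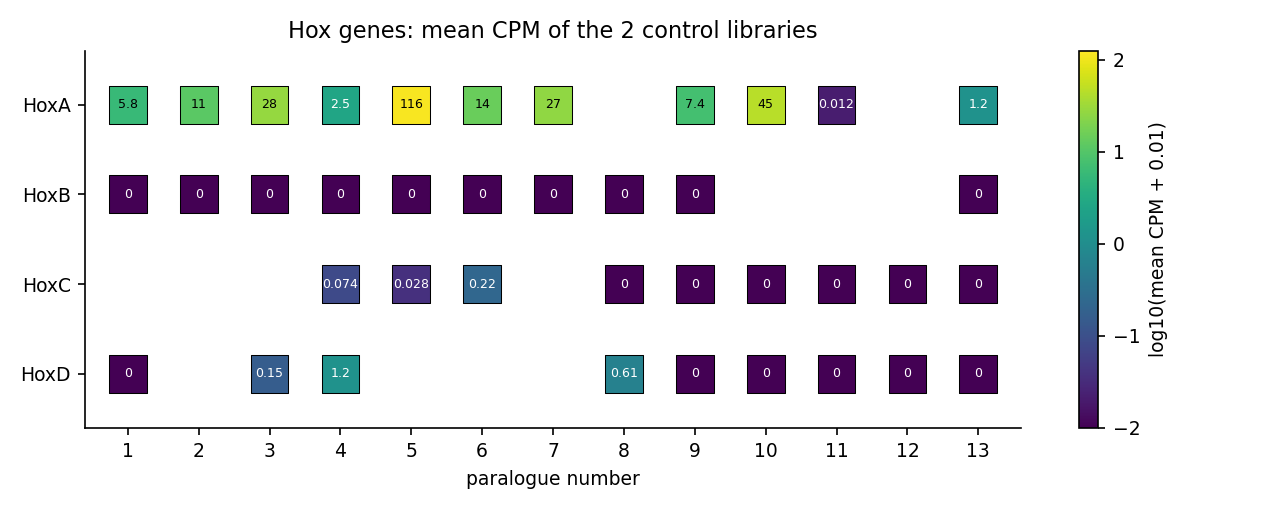
Mean CPM of the 2 control libraries for each Hox gene, by cluster (rows) and paralogue number (columns), with color giving log10 of mean CPM + 0.01. HoxA is filled apart from Hoxa11, HoxB is at 0 throughout, and HoxC and HoxD hold low values.

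The largest silent families were receptors of the senses. Of 1020 olfactory receptor genes 981 had no read (96.2%, beside 31.4% of protein-coding genes) and 1, Olfr920, was expressed, at 1.44 and 1.7 CPM. Of 293 vomeronasal receptor genes 282 had no read (96.2%, against the same 31.4%) and none was expressed. Only 195 of these 282 had at least 50% of their windows countable. No read was found for 30 of 35 bitter taste receptors (85.7%) and 40 of 42 beta-defensins (95.2%), and none of either family was expressed. In the keratin family 30 of 53 genes had no read, among them the epidermal keratins Krt1 and Krt2. A 0 is informative only where reads can be placed. Of the 6778 protein-coding genes with no read, 5369 had at least 50% of their windows countable, 1316 had fewer and 93 could not be assessed. By comparison, 646 of the 14800 protein-coding genes with a read had under 50%.

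Promoter sequence differed with level. RefSeq promoters (GRCm38.p6), read over the 250 bases before each start, were matched for 16318 protein-coding genes with 19931 promoters. The ratio of observed to expected CpG, which is near 1 where CpG is not depleted, had a median of 0.799 for genes at 100 CPM or more on average, 0.742 at 10 to 100 CPM, 0.586 at 1 to 10 CPM, 0.330 for genes with a read but under 1 CPM and 0.219 for countable genes with no read. The letters TATAAA, on either strand, were present in 5.64% of the promoters of the highest class and in 21.7% of those of countable genes with no read, beside 11.1% of the 19931 matched promoters and 12.4% of all 32841 in the table. The median GC content was 62.8% in the highest class and 47.2% in the silent class. The middle 50% of ratios ran from 0.614 to 0.950 in the highest class and from 0.0953 to 0.437 in the silent class, so these ranges did not meet, while each overlapped that of the class at 1 to 10 CPM, 0.328 to 0.785.

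6 genes of different level show the range, each as the 250 bases before the start in the direction of transcription, with CpG in capitals; they were chosen to set a high keratin and chaperone and an expressed Hox gene beside silent genes of the basal layer, of milk and of the cell cycle.
Krt18, 1199 and 1185 CPM, chr15:102027966-102028215 (plus strand): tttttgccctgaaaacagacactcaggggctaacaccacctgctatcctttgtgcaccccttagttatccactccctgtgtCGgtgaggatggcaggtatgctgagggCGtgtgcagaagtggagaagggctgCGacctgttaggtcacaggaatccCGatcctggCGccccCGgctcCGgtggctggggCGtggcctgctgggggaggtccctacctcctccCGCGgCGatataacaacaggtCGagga
Hspa5, 2999 and 3156 CPM, chr2:34771840-34772089 (plus strand): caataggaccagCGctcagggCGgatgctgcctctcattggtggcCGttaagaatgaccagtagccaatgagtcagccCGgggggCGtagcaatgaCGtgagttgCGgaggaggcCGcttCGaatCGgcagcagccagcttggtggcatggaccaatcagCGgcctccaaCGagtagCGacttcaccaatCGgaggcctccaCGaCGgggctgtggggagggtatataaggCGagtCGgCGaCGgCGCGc
Hoxa5, 115 and 118 CPM, chr6:52204588-52204837 (minus strand): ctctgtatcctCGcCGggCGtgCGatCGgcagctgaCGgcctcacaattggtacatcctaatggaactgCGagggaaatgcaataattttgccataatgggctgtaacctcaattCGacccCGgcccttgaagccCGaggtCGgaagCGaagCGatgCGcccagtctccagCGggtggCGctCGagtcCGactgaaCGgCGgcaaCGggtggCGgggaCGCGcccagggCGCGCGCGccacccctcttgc
Cdkn2a, no read, start with the higher coordinate, chr4:89294620-89294869 (minus strand): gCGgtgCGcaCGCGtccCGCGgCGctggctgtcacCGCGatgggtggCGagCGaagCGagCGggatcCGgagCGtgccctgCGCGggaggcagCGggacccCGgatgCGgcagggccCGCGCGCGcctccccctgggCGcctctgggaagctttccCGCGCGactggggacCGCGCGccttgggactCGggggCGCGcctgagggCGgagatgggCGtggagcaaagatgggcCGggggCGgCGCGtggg
Krt5, no read, chr15:101712906-101713155 (minus strand): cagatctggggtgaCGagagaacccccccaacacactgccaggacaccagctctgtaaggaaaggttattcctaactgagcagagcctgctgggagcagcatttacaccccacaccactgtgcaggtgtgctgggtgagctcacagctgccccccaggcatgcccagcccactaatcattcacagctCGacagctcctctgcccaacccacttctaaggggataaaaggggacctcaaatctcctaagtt
Csn2, no read, chr5:87699426-87699675 (minus strand): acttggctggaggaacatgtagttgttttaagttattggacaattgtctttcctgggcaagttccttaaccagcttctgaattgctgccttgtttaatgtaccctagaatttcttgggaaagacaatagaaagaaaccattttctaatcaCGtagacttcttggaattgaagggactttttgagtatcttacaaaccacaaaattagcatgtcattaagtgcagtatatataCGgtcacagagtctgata
The Krt18 window held 12 CpG and the Hspa5 window 22, with ratios of 0.527 and 0.926. The windows of Krt5 and Csn2 held 2 each. Silence did not go with few CpG in each case, since the Cdkn2a window shown held 40, more than that of the expressed Hoxa5 with 28, while the window before the other Cdkn2a start held 7. None of these windows held TATAAA.

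Mitochondrially encoded genes gave 1.05% of the gene counts in replicate 1 and 0.98% in replicate 2. Of the 13 that encode proteins, all subunits of the respiratory chain or of ATP synthase, 7 had reads. They were led by mt-Co1 at 4033 and 3545 CPM and mt-Cytb at 2784 and 2783 CPM. The other 6, mt-Co2, mt-Co3, mt-Atp6, mt-Atp8, mt-Nd3 and mt-Nd4l, had no read in either library. Of the 240 windows taken from those 6 genes, 1 occurred once in the genome, and 239 had an identical copy on chromosome 1 between 24612404 and 24615565 (GRCm38). Reads that align to more than 1 place were not counted to genes. A 0 in these 6 genes thus gives no information on their level. Entries for such reads made up 24.1% of all counts, in genes or not, in each library. mt-Cytb and mt-Nd1 had no such copy, and 47.5% of mt-Co1 windows could be counted.

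Of 82 cytosolic ribosomal protein genes 79 were expressed (96.3%, beside 50.8% of protein-coding genes) and together held 5.2% and 5.25% of the counts. All 15 genes of glycolysis and glucose entry were expressed (against the same 50.8%), from Pfkm at 32.3 and 39.5 CPM to Pkm. Histone genes of the replication-dependent clusters make mRNAs known to end in a stem-loop without a poly(A) tail, and these were poly(A) libraries. Of 65 such genes 6 were expressed (9.23%, against the same 50.8%), with Hist1h1c the most counted at 26.4 and 53.1 CPM. Of the 20 with no read, only 5 were countable by the rule used above for silent genes. A lack of reads in the others gives little information on their level. Whether poly(A) selection lowered these counts was not tested. The linker histone gene H1f0 was among the most counted genes of all.

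Long noncoding RNA genes held little of the signal. 498 of 6225 were expressed (8.0%) and together gave 0.835% of the counts in replicate 1 and 0.782% in replicate 2. The 10 most counted included Gas5, a host of small nucleolar RNAs, at 676 and 558 CPM, Malat1, which is kept in nuclear speckles, at 534 and 586 CPM, and Neat1, the scaffold of paraspeckles, at 197 and 349 CPM. Zfas1, Snhg17, 2410006H16Rik, 1110038B12Rik, 3110039I08Rik and Gm26917 were also among them, between 163 and 514 CPM in every library, as was Cct6a at 566 and 504 CPM, a chaperonin subunit gene that the annotation lists as a processed transcript. Neat1 was higher in replicate 2, with a ratio of 1.77 (95% counting interval 1.72 to 1.82). Hotair, Meg3 and Tsix had no read. Xist, the RNA that coats the inactive X chromosome of female cells, was at 0.209 and 0.225 CPM, and 7 of 8 Y-linked genes had no read, the remaining Kdm5d having 1.

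The genes on which the study turned varied in level in these controls. MaTAR25 itself, annotated as 1200007C13Rik at chr2:167827693-167833646, had 35 and 30 reads, which is 0.811 and 0.962 CPM and under the threshold in both libraries. Tns1, which encodes the focal adhesion protein tensin 1, had 310 and 71 reads or 7.18 and 2.28 CPM, so the 2 controls differed, with a ratio of 0.317 (95% counting interval 0.241 to 0.411). Purb and Pura, which encode single-strand DNA-binding proteins, had 279 and 243 CPM and 141 and 133 CPM. Ppib, an endoplasmic reticulum isomerase used as a reference, had 164 and 159.7 CPM. Hprt, the purine salvage enzyme, had 69.5 and 68.6 CPM, with little difference between the libraries.

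Between the 2 libraries levels were close for most genes and far apart for a few. Among the 12041 genes that averaged 1 CPM or more, 76 were 2-fold or more higher in replicate 2 (0.631%) and 123 were 2-fold or more lower (1.02%), together 199 (1.65%). The log2 ratio had an SD of 0.32, and the coefficient of variation estimated by edgeR over these genes was 11.5%. Pearson's correlation of log2(CPM + 1) across the same genes was 0.993, and genes are not independent replicates. Above a mean of 10 CPM, 30 of 9270 genes were 2-fold or more apart.

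Among genes that averaged 10 CPM or more, the 5 furthest apart on the lower side of replicate 2 included Deptor, Wnt10a, Lrrn4cl and Mcam. Deptor, an inhibitor of mTOR, had 39.3 and 10.2 CPM, a ratio of replicate 2 to replicate 1 of 0.26 (95% counting interval 0.23 to 0.293). Mcam, an adhesion molecule, had 66.3 and 22.7 CPM. The 5 on the higher side were Lcn2, Acsbg1, Arhgef3, Txnip and Adh7. Txnip, a glucose-responsive regulator of thioredoxin, had 131 and 366 CPM, with a ratio of 2.79 (95% counting interval 2.7 to 2.88), and Lcn2, an iron-carrier-binding protein of innate immunity, had 5.19 and 17.1 CPM, with a ratio of 3.29 (95% counting interval 2.81 to 3.86). Acsbg1 had 20.7 and 65.9 CPM. For none of these named genes did the counting interval of the ratio include 1.

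Itga11, the collagen-binding integrin subunit described above and named here after its values were seen, was detected almost wholly in replicate 2, with 2 and 239 reads. A difference in the cells and one in the handling of the samples cannot be told apart with 1 library each.

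**Figure D5:**
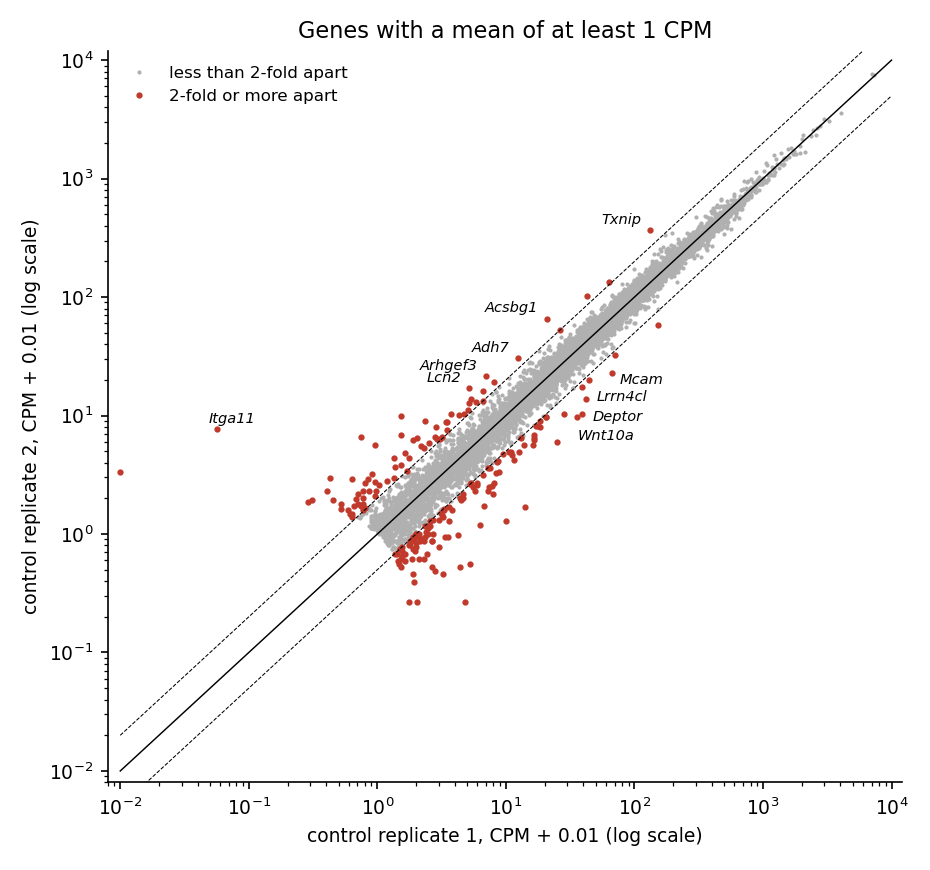
Level in replicate 2 against replicate 1 for the 12041 genes that averaged 1 CPM or more, on log scales of CPM + 0.01, with equality as a solid line and 2-fold differences dashed. The 199 genes 2-fold or more apart are red, and Itga11 lies far above the line at the left.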

How the data were processed

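Poly(A) RNA from 4T1 control cells was sequenced single-end in 2 libraries. Per the study's methods and the submitters' processing notes, which name CASAVA, FastQC, STAR, HTSeq and DESeq2, the authors aligned reads to GRCm38 (mm10) with STAR and counted them with HTSeq on GENCODE vM5. No source used here gives the strand setting, so antisense and overlapping genes may share reads. The deposited values are raw counts per gene, which sum to 43155437 and 31178780. Entries for no gene made up 34.3% and 33.9% of all counts and stayed out of library sizes.

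CPM were computed on gene counts, and TPM with the exon-union length in GENCODE vM21 (GRCm38), which gave symbols to 44671 of 45318 IDs. The other 647 were used by ID. 1 CPM is about 43 reads in replicate 1. Ratios between libraries have exact (Clopper-Pearson) 95% intervals, which cover counting error only. To see where reads can be placed, up to 40 windows of 50 bases per gene were counted in GRCm38.p6; a window is countable if it occurs once and in no other gene's exon. Promoters are 250 bases before RefSeq starts. R 4.3.3, edgeR 4.0.16, DESeq2 1.42.0 (size factors only), Python 3.11.15, pandas 2.3.3 and scipy 1.17.1 were used, and the scripts were first tested on simulated counts in which 200 genes had been changed.

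The libraries, the 40 gene lists and the rules were chosen with earlier results of these data known. The integrin name pattern was narrowed after the values were seen, to drop 4 genes that only share the prefix. Genes named are the given markers Krt8, Krt18, Epcam, Vim and Myc, the 20 highest by CPM and by TPM (exon length of at least 200 bases), up to 8 highest and lowest members of each list, all members of lists of up to 24 genes, the 5 furthest apart each way above 10 CPM, the 10 highest long noncoding RNAs and the genes the study turned on; others are named as members of their list or as neighbors. A few genes that these rules select are not reported here. H2-L, Snhg1 and Dancr of the lists were not found under those symbols. Alternatives were TMM and DESeq2 scaling, the total of all counts, other minimums, TPM and leaving out each library. The knockout, antisense and ChIRP samples were not used here.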

Additional observations from a re-analysis of the deposited data

How the results depend on the processing

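The number of expressed genes was 11800 with TMM or DESeq2 scaling, ran from 11022 at a minimum of 2 CPM to 12610 at 0.5 CPM and 12960 at 1 TPM, was 11322 when reads outside genes entered the total, and lay between 11949 and 12030 with 1 library left out. Genes with 0 counts numbered 25006 to 25682 in a single library and 27976 with up to 3 counts allowed. The count of genes 2-fold or more apart depended on the filter: it was 199 as reported, 115 at a minimum of 2 CPM, 2101 with no filter and 30 at a mean of 10 CPM, the last chosen after the data were seen. The share of the 10 highest genes was 3.56% without mitochondrially encoded genes, and 3.73% to 3.77% with 1 library left out. Of the mean CPM of 749 genes, none moved by over 1 SD with TMM. With the total of all counts every CPM was about 66% of the value given. Of the 40 list counts, 1 moved by over 1.5 times at 0.5 CPM, 2 at 2 CPM, 1 at 1 TPM and none with a library left out.

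No paired analysis was possible because no groups were compared and the 2 libraries form a single group. With 2 libraries the SD is itself poorly known, and a level near 1 CPM rests on about 43 reads in replicate 1 and 31 in replicate 2. Genes whose sequence is repeated, or shared with another gene's exon, are understated or missing. RNA levels do not give protein levels, and secretion was not measured.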

Other observations

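Other gene families gave further detail of the same 2 libraries. Of 10 stem and pluripotency genes 4 were expressed and 4 had no read, beside 50.8% and 31.4% of protein-coding genes. The list is short, and its difference from these shares was not tested. Cd44, the hyaluronan receptor, had 612 and 485 CPM, Bmi1, a Polycomb subunit, 130.4 and 119.6 CPM and Klf4 28.7 and 39.6 CPM, whereas the pluripotency genes Sox2, Nanog, Pou5f1 and Lin28a had no read and the progenitor markers Ly6a and Aldh1a1 were under 1 CPM. Among 19 Sox genes 6 were expressed (31.6%, against the same 50.8%) and 10 had no read (52.6%, beside 31.4% of protein-coding genes). Sox4 had 166 and 143 CPM, although 45% of its windows could be counted, and Sox9 had 69.6 and 66.3 CPM. Of 23 claudin genes 6 were expressed (26.1%, against the same 50.8%). Beside Cldn4, Cldn3 and Cldn7 they included Cldn12 at 179 and 171 CPM, and the endothelial Cldn5 had no read. Among expressed claudins Cldn9 had the ratio between the libraries furthest from 1, at 6.28 and 1.19 CPM.

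Of 15 imprinted genes, of which cells normally use 1 parental copy, 5 were expressed (33.3%, beside 50.8% of protein-coding and 26.0% of all genes). Igf2r, which carries lysosomal enzymes and clears the growth factor Igf2, had 564 and 574 CPM. Nnat, Mest, Snrpn and Plagl1 were between 1 and 10 CPM in both libraries. H19, the noncoding gene beside Igf2, had 2 and 0 reads, and Dlk1, Peg3, Peg10, Ndn, Grb10 and Meg3 had none. In the Mage family, type I members are normally confined to germ cells, and tumors can turn them on. Of its 21 genes 2 were expressed (9.52%, beside 50.8% of protein-coding genes). They were Maged1 at 225 and 255 CPM and Maged2 at 9.01 and 11.7 CPM, both type II. Mageb3 had 2 and 1 reads, and the other type I genes had none. Of the 17 Mage genes with no read, 9 had at least 50% of their windows countable.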
